A study of Rattus norvegicus with 4 samples.

Results

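Laminin, integrin and basement membrane genes were described in RNA sequencing data of eye and retina from wild-type rats of the pigmented Long Evans strain. The members were all genes whose symbol was Lama, Lamb or Lamc with a number, Itga or Itgb with a number or 1 letter, or Nid1, Nid2, Hspg2, Agrn or Dag1, whatever their level. This gave 34 of 14485 gene names: 11 laminin chains, 19 integrin chains, 2 nidogens, agrin and dystroglycan. Hspg2, the perlecan gene, was not analysed here. The labels name 2 tissues with 2 technical replicates each and state that RNA of 5 rats was pooled for a library. Age is not given. For each tissue 1 column of values was used, called its library here. With 1 library a tissue there is no test and no p-value, and every difference below is one between these 2 libraries.

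Basement membranes are thin sheets of matrix under epithelia and around muscle fibres, vessels and nerves. Each laminin is a trimer of an alpha, a beta and a gamma chain, nidogens link the laminin network to type IV collagen, and the proteoglycans perlecan and agrin bind both. Cells hold on to this matrix through integrins, each a pair of an alpha and a beta chain, and through dystroglycan, whose sugar chains bind laminin. In the eye such sheets include the lens capsule, the base of the corneal epithelium, Bruch's membrane under the retinal pigment epithelium, and the inner limiting membrane laid against the end feet of Mueller glia.

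Values are taken as RPKM, that is, reads divided by the gene model's length and by all reads of the library, which allows levels of different genes to be compared within a library. The unit was inferred from the values. The totals recovered from them were 28071917 reads for eye and 51944762 for retina. A gene was tested when it reached 1 RPKM in either library, and was called higher or lower in eye when log2((eye + 0.1) / (retina + 0.1)) passed a fold of 2. Folds given for genes are plain ratios of the deposited values. Their intervals are exact 95% intervals that cover counting error only. The smallest number of reads that could stand behind a member was 17 in eye and 4 in retina, and 25 of the 34 members had at least 100 in both. Marker lists, chosen with earlier results of these data known, went with the tissue labels. The 7 lens genes with a value summed to 68657 RPKM in eye and 1490 in retina. The 7 rod genes summed to 16841 in eye and 34771 in retina. The description of every sample names retina mRNA, so the libraries are called by their tissue label.

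The 5' flanks of 2 members are shown because those genes stood at opposite ends of the comparison, Itgb6 with the highest eye over retina ratio among the tested members and Lamb3 with the lowest. Each run is the 300 bases from 250 before to 50 after the gene start in RefSeq on the rat build GRCr8, which is not the build the submitters name (rn4). Itgb6 lies on the minus strand at chr3:65530284-65530583 and Lamb3 on the plus strand at chr13:107362303-107362602. Capitals mark a match to any of the motifs searched below.
Itgb6: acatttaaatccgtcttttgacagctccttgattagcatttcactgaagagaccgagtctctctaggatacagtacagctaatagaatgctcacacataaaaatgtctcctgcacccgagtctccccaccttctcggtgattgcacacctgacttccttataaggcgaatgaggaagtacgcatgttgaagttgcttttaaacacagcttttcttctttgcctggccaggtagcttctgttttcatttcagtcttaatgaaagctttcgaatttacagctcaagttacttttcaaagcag
Lamb3: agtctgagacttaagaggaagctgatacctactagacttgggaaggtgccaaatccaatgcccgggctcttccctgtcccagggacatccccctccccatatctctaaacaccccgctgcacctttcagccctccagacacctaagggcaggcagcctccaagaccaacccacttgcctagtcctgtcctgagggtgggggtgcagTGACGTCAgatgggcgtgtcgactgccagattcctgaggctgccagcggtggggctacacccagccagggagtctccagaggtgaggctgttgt
The motifs were the AP-1 site TGANTCA, the cyclic AMP response element TGACGTCA, the Sp1 core GGGCGG, the Crx and Otx core TAATCC and the TATA box TATAAA, on both strands, chosen with the sequences in view. Lamb3 held 1 match, to the cyclic AMP response element, which 612 of 33469 RefSeq flanks of this length hold (1.83%). Itgb6 held none. Flanks were at hand for 26 of the 34 members, of which 15 held the Sp1 core (33.1% of all flanks), 0 the Crx and Otx core (7.17%), 2 the TATA box (14.2%) and 1 the AP-1 site (7.33%). A match is a description of letters only.

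Most members were more abundant in the eye library, and 1 laminin chain went strongly the other way. Of 29 tested members, 13 were called higher in eye, against 17.8% of all 13259 tested genes, and 1 was called lower, Lamb3, against 7.95% of all. The median log2 ratio of the tested members was 0.94, beside -0.01 for all tested genes. The highest levels in eye were 72.1 RPKM for Itgb1, 44.3 for Nid1, 38.3 for Itgb5, 33.9 for Dag1 and 20.9 for Lamb2, an order in which no neighbours shared a counting interval. In retina they were 29.4 RPKM for Itgb5, 25.1 for Lamb3, 21.6 for Dag1, 18.8 for Nid1 and 18.4 for Itgb1, of which only Nid1 and Itgb1 had overlapping intervals (18.2 to 19.4 and 17.8 to 19.0). Lamb3 was thus second among the members in retina and sixteenth in eye.

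**Figure D1:**
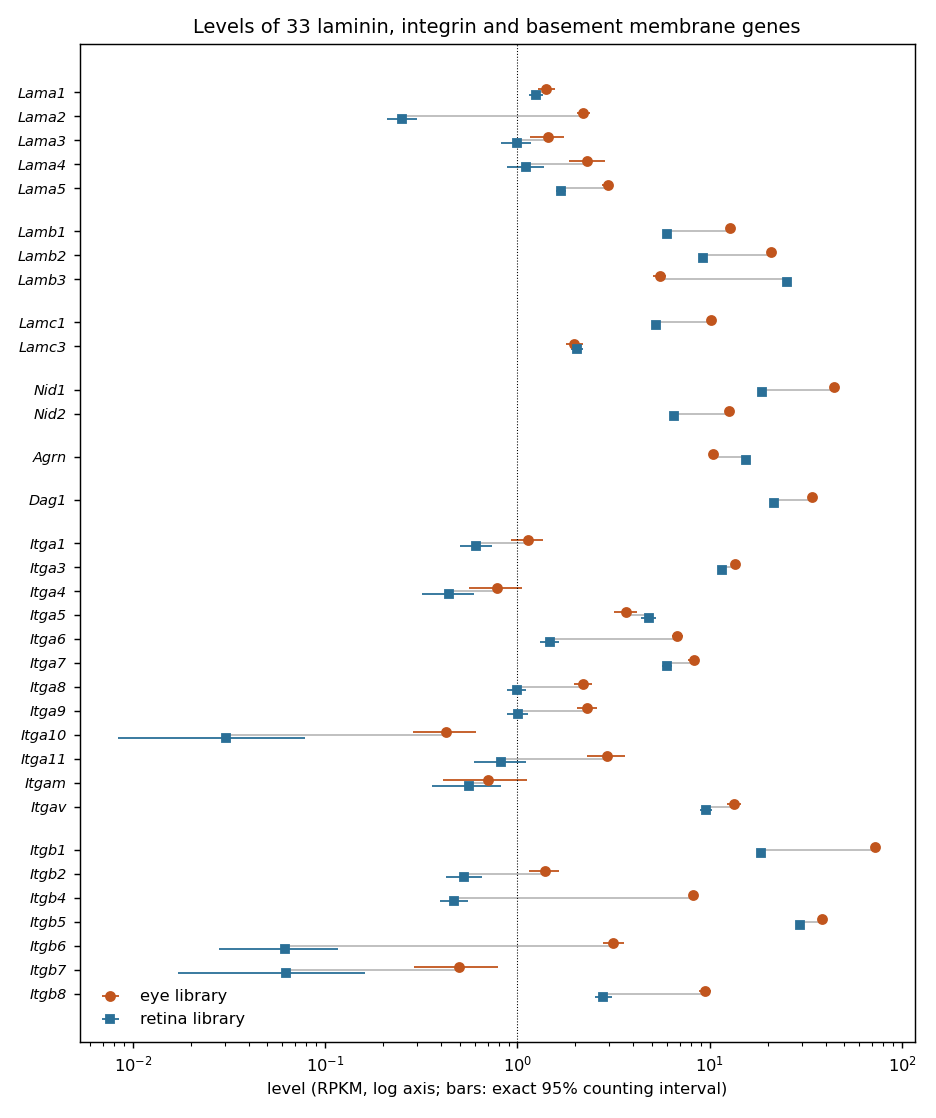
Level of 33 members in RPKM on a log axis, grouped by class, with circles for the eye library and squares for the retina library; bars are exact 95% counting intervals and the dotted line marks 1 RPKM. Itgb1 lies highest in eye at 72.1 and Itgb5 in retina at 29.4, and for Lamb3 the square lies far to the right of the circle.

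The calls depended in part on how the libraries were scaled. Scaling both libraries to equal summed values moved the log2 ratio by -0.64, since lens genes held 34.8% of the summed value in eye and 0.581% in retina. Then 7 members were called higher (11.5% of all tested genes) and 3 lower, Lamb3, Agrn and Itga5 (31.9%). In that scaling the log2 ratios of Itga3, Itga7, Itgav, Itgb5, Lama1 and Lama3 were below 0 in place of above it. With totals without lens genes 16 were called higher (21.1% of all) and 1 lower (4.29%), and the log2 ratio of Lamc3 crossed to above 0. That scaling rests on the smallest numbers of reads that could stand behind the lens genes, so its shift of 0.19 may be too small. At a fold of 4 as deposited, 4 were called higher, Itgb6, Itgb4, Lama2 and Itga6 (9.07% of all), and 1 lower, Lamb3 (0.0905%). Itga6, Itga11, Itgb1, Itgb4, Itgb6, Itgb8 and Lama2 were called higher, and Lamb3 lower, as deposited and under both scalings.

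Laminin alpha chains, which carry the cell-binding domain of the trimer, were all low, and only Lama2 was called. Lama2, the chain of muscle and Schwann cell basement membranes, was at 2.20 RPKM in eye and 0.252 in retina, 8.76-fold higher in eye (interval 7.22 to 10.7). Lama4, a chain of vessel walls, had 2.31 in eye and 1.11 in retina, and its 2.08-fold ratio (1.52 to 2.85) was not called once 0.1 was added. Lama5, the widespread chain of adult epithelia and vessels, had the highest value of the alpha chains in both libraries, 2.95 in eye and 1.69 in retina, although in eye its interval (2.76 to 3.14) overlapped that of Lama4 (1.86 to 2.84). Lama3, the epithelial chain, had 1.44 in eye and 0.991 in retina, and Lama1, a chain of early development that persists in the lens capsule and retinal inner limiting membrane, at 1.42 in eye and 1.25 in retina, where its ratio had an interval (0.993 to 1.30) that included 1. As a share of the summed alpha chains, Lama2 made up 21.4% in eye and 4.76% in retina, while Lama1 made up 13.7% in eye and 23.6% in retina.

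Beside Lama2, the 6 skeletal muscle markers were all higher in eye, summing to 2672 RPKM there and 12.2 in retina, and the 5 Schwann cell and myelin markers summed to 226 in eye and 29.9 in retina, with none listed at 0. Muscle and Schwann cell markers were not alone in this. The 6 stroma markers were also all higher in eye, summing to 2176 RPKM there and 8.42 in retina. Of the 7 rod markers, 0 were called higher and 4 lower. The part of any of these cells in the result was not tested. In bulk tissue, fewer cells of a type and less RNA per cell cannot be told apart.

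Among the laminin beta chains the make-up differed most between the libraries. Lamb2, the beta chain of muscle synapses, vessels and the retinal inner limiting membrane, was at 20.9 RPKM in eye and 9.19 in retina, 2.28-fold higher in eye (2.16 to 2.40). Lamb1, its widespread counterpart, was at 12.7 in eye and 5.96 in retina, 2.14-fold higher (2.01 to 2.28). Lamb3, the beta chain that joins the product of Lama3 in the anchoring laminin of skin and cornea, had 5.51 in eye and 25.1 in retina, and was 4.57-fold lower in eye (4.20 to 4.97). With equal summed values Lamb1 and Lamb2 were not called. Lamb2 exceeded Lamb1 by a similar factor in both libraries, 1.64 in eye and 1.54 in retina.

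Lamb3 made up 14.1% of the summed beta chains in eye and 62.4% in retina, a share that does not depend on how the libraries are scaled to each other. Summed beta chains came to 39.2 RPKM in eye and 40.3 in retina, and without Lamb3 to 33.7 in eye and 15.1 in retina. Of all tested genes, 5 had a lower log2 ratio than Lamb3 (-2.17), and 12 were lower in eye by a fold of at least 4. The 7 rod markers, at log2 ratios from -1.12 to -0.48, and the 5 Mueller glia markers, from -0.91 to 1.41, all lay above it.

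**Figure D2:**
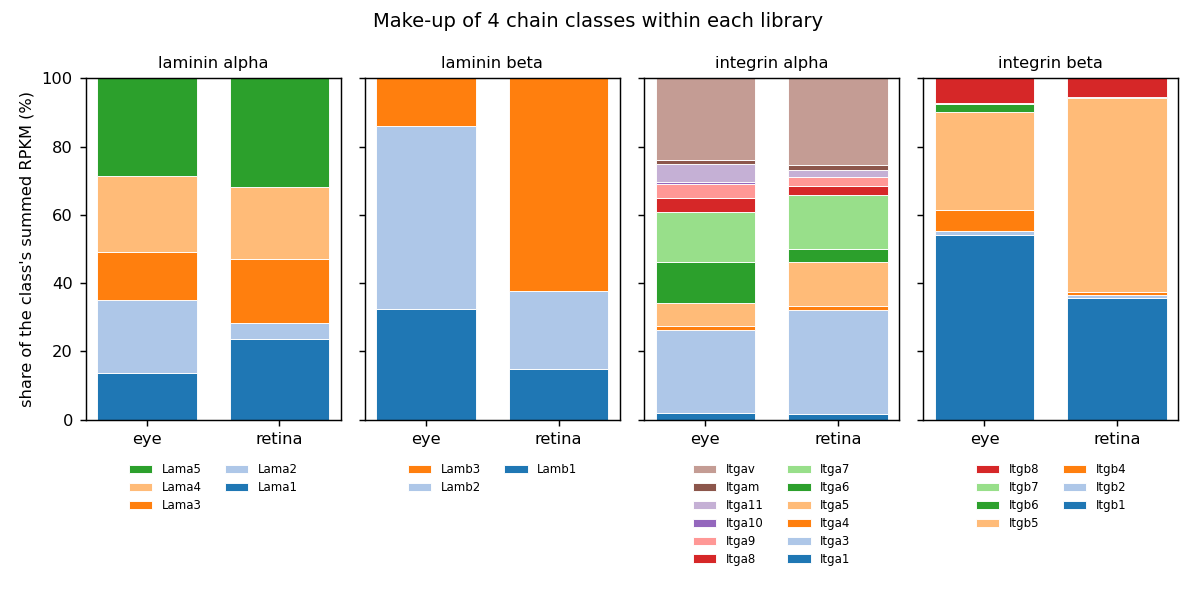
Share of each chain in the summed RPKM of its class, in percent, for 4 classes, with the eye library left of the retina library in each panel. Lamb3 fills 14.1% of the laminin beta bar in eye and 62.4% in retina, and Itgb5 28.8% of the integrin beta bar in eye and 56.9% in retina.

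Lama3, whose product joins that of Lamb3, did not share its pattern. Lama3 was at a 1.45-fold ratio toward eye (1.10 to 1.91) before any added value and was not called. Its log2 ratio turned below 0 with equal summed values. In the eye library Lamb3 stood at 3.83 times the level of Lama3, and in the retina library at 25.4 times. No annotated gene overlapped Lamb3 in the RefSeq table of GRCr8. Its nearest protein-coding neighbours were Camk1g, a calmodulin-dependent kinase gene, at 3.84 in eye and 8.40 in retina, and G0s2 at 8.40 in eye and 6.81 in retina.

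Of the gamma chains, Lamc1, the partner in most laminins, was at 10.2 RPKM in eye and 5.25 in retina, a 1.93-fold ratio (1.82 to 2.06) just short of a call. Lamc3, described in the retina and at nerve terminals, had 1.98 in eye and 2.04 in retina, and its interval (0.850 to 1.10) included 1. Summed over the class, the alpha chains came to 10.3 RPKM in eye and 5.29 in retina, below the summed beta chains in each library.

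The linkers and the dystroglycan gene were among the most abundant members in both libraries. Nid1, which bridges laminin and type IV collagen, was at 44.3 RPKM in eye and 18.8 in retina, 2.36-fold higher in eye (2.27 to 2.46). Nid2, its relative, was at 12.6 in eye and 6.54 in retina, a 1.92-fold ratio that was not called, and Nid1 exceeded Nid2 by 3.52 times in eye and 2.87 times in retina. Agrn, the proteoglycan that clusters receptors at the nerve-muscle synapse and binds dystroglycan, was at 10.4 in eye and 15.4 in retina, a 1.48-fold ratio toward retina (1.41 to 1.56) that was not called as deposited. Dag1, dystroglycan itself, was at 33.9 in eye and 21.6 in retina, 1.57-fold (1.51 to 1.63) and not called. Nid1 was not called with equal summed values.

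Laminin-binding integrin alpha chains differed among themselves. Itga6, which pairs with Itgb4 in hemidesmosomes and with Itgb1 elsewhere, was at 6.78 RPKM in eye and 1.47 in retina, 4.62-fold higher in eye (4.06 to 5.25). Itga3, the other epithelial laminin receptor chain, had 13.5 in eye and 11.6 in retina, and Itga7, the muscle laminin receptor chain, at 8.25 in eye and 6.0 in retina, neither called. Itga3 was the most abundant integrin alpha chain in both libraries, with Itgav next to it, and in eye the intervals of Itga3 (12.8 to 14.2) and Itgav (12.3 to 14.5) overlapped. Itga6 made up 12.1% of the summed alpha chains in eye and 3.87% in retina.

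Among the collagen-binding and other matrix-binding alpha chains, Itga11, Itga8 and Itga9 were called higher. Itga11, a fibroblast collagen receptor chain, had 2.91 RPKM in eye and 0.824 in retina, 3.52-fold higher in eye (2.40 to 5.25), and Itga1, also a collagen receptor chain, at 1.13 in eye and 0.611 in retina, not called. Itga10, of cartilage, was at 0.424 in eye and 0.0306 in retina, below the minimum. Itga8, a receptor chain for nephronectin, had 2.19 in eye and 0.989 in retina and Itga9, a receptor chain for tenascin, at 2.30 in eye and 1.00 in retina. Both were called higher, by 2.21-fold (1.89 to 2.59) and 2.29-fold (1.92 to 2.74), but not with equal summed values. Itgav, the vitronectin receptor chain, had 13.4 in eye and 9.57 in retina, and Itga5, the fibronectin receptor chain, at 3.66 in eye and 4.83 in retina, neither called as deposited. Itga5 and Agrn were, with Lamb3 and Lamc3, the 4 members whose value was lower in eye. Itga1 overlaps the gene Pelo in the RefSeq table, at 27.9 in eye and 13.9 in retina. Reads shared between the 2 cannot be told apart, as no source used here says whether strand was counted. The same limit holds for other members, as 17 of the 34 overlapped another gene and 5 a protein-coding one. For 2 of these, Itga1 and Itga7, the protein-coding gene had a value under its current symbol. Older symbols were not searched for overlapping genes.

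**Figure D3:**
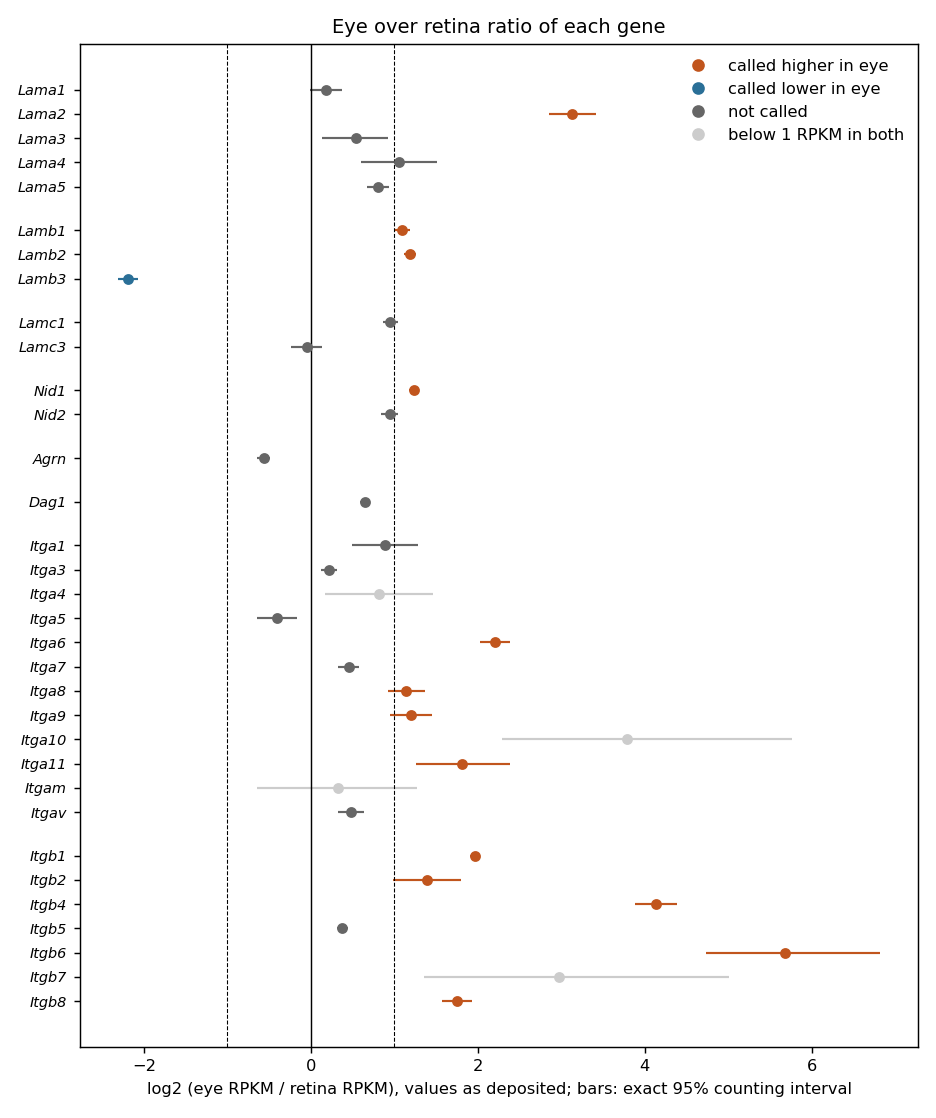
Log2 of the eye over retina ratio of the deposited values of the same 33 members, with exact 95% counting intervals; dashed lines mark a fold of 2 in either direction, and colours give the call, which was made after adding 0.1. Lamb3 alone lies left of the lower line, and Itgb6 and Itgb4 lie farthest right among the tested members.

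Integrin beta chains were the class with the most calls. Of 6 tested chains, 5 were higher in eye, against 17.8% of all tested genes. With equal summed values 4 of them still were, against 11.5% of all. Itgb1, the shared partner of most alpha chains, had 72.1 RPKM in eye and 18.4 in retina, 3.91-fold higher in eye (3.76 to 4.08). Itgb4, the hemidesmosomal chain, had 8.20 in eye and 0.468 in retina, 17.5-fold higher (14.7 to 21.0). Itgb6, an epithelial partner of the Itgav chain that activates latent TGF-beta, was at 3.15 in eye and 0.0615 in retina, 51.2-fold higher (26.5 to 113). The retina value of Itgb6 stood for as few as 9 reads, and 363 tested genes (2.74%) had a higher log2 ratio. Itgb8, another partner of Itgav, was at 9.43 in eye and 2.80 in retina, 3.37-fold higher (2.98 to 3.81).

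Itgb5, a vitronectin receptor chain with a known role in the pigment epithelium's uptake of photoreceptor tips, was the exception, at 38.3 RPKM in eye and 29.4 in retina and not called. The order of the leading beta chains was thus turned round between the libraries: Itgb1 stood at 1.88 times the level of Itgb5 in eye and at 0.626 times in retina. Itgb1 made up 54.2% of the summed beta chains in eye and 35.6% in retina, and Itgb5 28.8% in eye and 56.9% in retina. Itgb5 exceeded its partner Itgav by a similar factor in both, 2.87 in eye and 3.08 in retina.

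The epithelial adhesion genes Itga6, Itgb4 and Itgb6 were called higher in eye beside markers of corneal and conjunctival epithelium, of which 6 of 6 with a value were higher, summing to 4538 RPKM in eye and 9.52 in retina, with none listed at 0. The part of these cells in the ratios was not tested. Itgb4 stood at 1.21 times the level of Itga6 in eye and 0.319 times in retina. Of the members that pair in the epithelial anchoring complex, Itga6 and Itgb4 were therefore called higher, Lama3 was not called and Lamb3 was called lower.

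Leukocyte integrin chains were near the floor of the measurement. Itgb2, the beta chain common to leukocyte integrins, was at 1.39 RPKM in eye and 0.530 in retina, 2.62-fold higher in eye (1.97 to 3.48), though not with equal summed values. Its macrophage partner Itgam was at 0.701 in eye and 0.557 in retina, with an interval of 0.638 to 2.42. Itga4 had 0.782 in eye and 0.443 in retina, and its gut-homing partner Itgb7 at 0.495 in eye and 0.0629 in retina. All but Itgb2 were below the minimum. Immune cell markers summed to 133 in eye and 29.4 in retina, with all 6 tested ones higher and none listed at 0. Their part was not tested.

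Other genes of the same pathways were taken from fixed lists, whose counts are to be read against the 17.8% of all tested genes called higher in eye and the 7.95% called lower. With equal summed values those shares were 11.5% and 31.9%. Of 19 tested further basement membrane components, 5 were called higher in eye and 0 lower, and 4 and 3 with equal summed values. The type IV collagen genes Col4a1 (95.6 RPKM in eye and 64.0 in retina) and Col4a2 (55.1 in eye and 34.9 in retina), the core of the sheet, were not called. Egflam, which encodes pikachurin, a dystroglycan ligand of the photoreceptor ribbon synapse, was at 25.2 in eye and 49.0 in retina, also not called. Those called were Col4a4, Col15a1, Fn1, Smoc1 and Smoc2, with Col15a1, of vessel and muscle basement membranes, at 4.91 in eye and 0.190 in retina. The list's median log2 ratio was 0.58.

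Of 5 tested hemidesmosome genes, 4 were called higher and 0 lower, against 17.8% and 7.95% of all tested genes. With equal summed values 2 were called higher, Col17a1 and Krt14, against 11.5% of all tested genes. Col17a1, the transmembrane collagen of hemidesmosomes, was at 44.2 RPKM in eye and 0.118 in retina, and Krt14, the basal cell keratin, at 40.4 in eye and 0.0264 in retina. Cd151, a tetraspanin partner of laminin-binding integrins, was not called, at 71.2 in eye and 39.7 in retina. Of 5 other laminin receptors, 4 were higher, and 2 with equal summed values, Sdc1 and Sdc2. Sdc1 (syndecan) had 99.0 in eye and 0.723 in retina, and Rpsa, a ribosomal protein also known as the laminin receptor precursor, at 223 in eye and 90.1 in retina. Sdc4 was not called, at 57.9 in eye and 40.2 in retina.

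Of 25 tested genes for adaptors that tie integrins to actin, 8 were higher in eye, 1 was lower and 16 were not called, with a median log2 ratio of 0.69, against 17.8% higher and 7.95% lower among all tested genes. The 3 with the highest mean of both libraries were not called: Actn4 at 125 RPKM in eye and 70.5 in retina, Ilk at 77.8 in eye and 76.6 in retina, and Fermt2 (a kindlin) at 37.1 in eye and 21.9 in retina. Fermt1, the epithelial kindlin, was at 2.54 in eye and 0.00804 in retina, where its value stood for as few as 2 reads. Tln2, the talin of muscle and brain, was the one lower in eye, at 8.36 in eye and 17.2 in retina, a 2.06-fold difference that was no longer called with totals without lens genes.

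The partners of dystroglycan inside the cell and the enzymes that make its laminin-binding sugars gave different counts. Of 11 tested genes of the dystrophin complex, 4 were higher and 0 lower, with a median log2 ratio of 0.36, against 17.8% higher and 7.95% lower among all tested genes. With equal summed values 4 were higher and 3 lower (27.3%), against 11.5% higher and 31.9% lower among all tested genes. Among those called higher were Sspn (sarcospan), at 6.30 RPKM in eye and 0.269 in retina, and the sarcoglycan genes Sgca, at 5.96 in eye and 0.585 in retina, and Sgcd, at 1.72 in eye and 0.149 in retina. Dmd (dystrophin) had 16.9 in eye and 24.0 in retina and Sgcb had 19.4 in eye and 14.1 in retina, neither called. Of 16 tested glycosylation genes, 1 was higher and 1 lower, with a median log2 ratio of -0.39. The lower count was near the 7.95% of all tested genes and the higher one below 17.8%. With equal summed values 0 were higher and 8 lower. Pomgnt1 had 42.2 in eye and 61.1 in retina and B4gat1, found under its older symbol, at 25.3 in eye and 37.2 in retina, neither called. Pomt2 was lower in eye, at 28.2 in eye and 59.4 in retina (2.11-fold), but was not called with totals without lens genes, and Large2, found under its older symbol, was higher at 2.91 in eye and 1.18 in retina, but was not called with equal summed values or with 1 added.

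**Figure D4:**
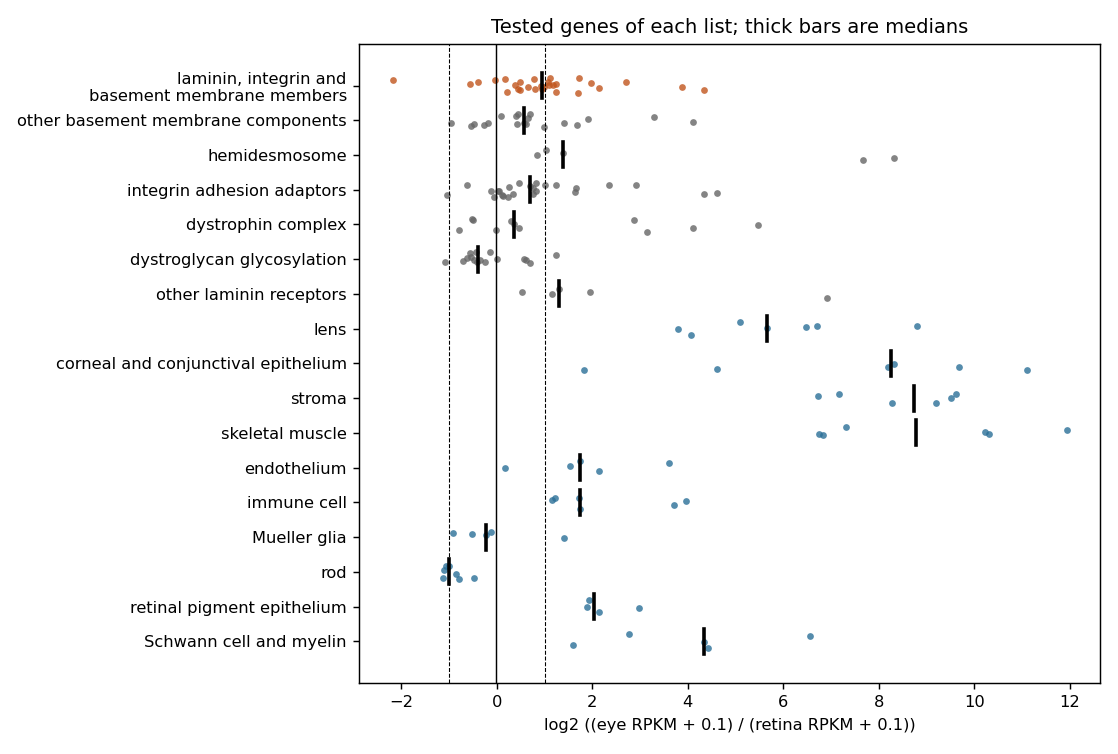
Log2 ratio of eye over retina, after adding 0.1 to each RPKM value, of every tested gene of the members, of 6 pathway lists and of 10 cell type marker lists; thick bars are medians, the solid line is the median of all tested genes (-0.01) and dashed lines mark a fold of 2. The members' median is 0.94, the dystroglycan glycosylation list lies to the left at -0.39, and the muscle, stroma and corneal markers lie farthest right.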

How the data were processed

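RNA was sequenced from pooled eye and retina of rats. The submitters' processing notes name GSNAP, HTSeq and the build rn4. No source used here gives versions, settings, annotation or strand use. The authors deposited 1 column of values per tissue, taken here as RPKM, with no word on whether the technical replicates were joined. Each column had 14533 rows, 7 with ND. For 41 names on several rows the finer value was kept.

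The unit was tested on the values. A search for whole reads, a whole length and 1 total per library gave whole reads in both libraries for 13760 of 13980 genes searched (98.4%), within the rounding of the printed decimals and at most 0.02 reads. They are the smallest that fit, so for counting error alone the intervals are if anything too wide. The intervals leave out differences between rats, libraries and technical replicates. Fold intervals are Clopper-Pearson and level intervals exact Poisson, and both cover counting error only, as reads were not counted as molecules. The recovery, the calls and the intervals were tested on simulated data.

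All genes were compared at once. Every member is given except 1, and some genes that the rules take are not reported here. Of each pathway list the 3 genes with the highest mean and those called against the majority are given, and others named from the lists were chosen after their values were seen. Symbols were matched to the RefSeq table of GRCr8, older ones of the lists through its synonyms. Genes that overlap a member were looked up by their current symbol only. The members, lists and settings were chosen with earlier results of these data known. Alternatives were the added value, the minimum, the fold, 3 scalings, the interval and rows of at most 5 decimals. Python 3.11.15, numpy 2.4.6, pandas 2.3.3 and scipy 1.17.1 were used.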

Additional observations from a re-analysis of the deposited data

How the results depend on the processing

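No paired analysis was possible because each tissue had 1 column of values, so neither a replicate block nor leaving out a replicate could be run. Of 29 tested members, 13 were called higher as reported (against 17.8% of all tested genes). Of the same 29, 4 were at a fold of 4 (9.07% of all) and 7 with equal summed values (11.5%). With a minimum of 5, 7 were called higher of only 16 tested. Those called lower, 1 as reported (7.95% of all), numbered 3 with equal summed values (31.9%). The members' median log2 ratio of 0.94 was 0.65 with 1 added, 0.31 with equal summed values and 1.13 with totals without lens genes, where the medians of all genes were -0.01, -0.64 and 0.17. Of 81 tested genes of the pathway lists, 26 were called higher as reported, against 17.8% of all tested genes. At a fold of 4, 13 were, against 9.07% of all. Those called lower numbered 2 as reported (against 7.95% of all), 0 at a fold of 4 (0.0905%) and 0 with totals without lens genes (4.29%). They numbered 1 with 1 added, and 16 with equal summed values (19.8%, against 31.9% of all tested genes). The log2 ratio of Camk1g was -1.11 and became -1.73 with equal summed values. Each of these is set by the alternative's own construction: fewer genes tested, a larger fold, a shift of all ratios or, with 1 added, smaller ratios of low values. No called member could change direction under any alternative. Each had passed a fold of 2, more than the largest shift of the log2 ratios (-0.64), and the other alternatives cannot turn a ratio round. With 1 added 9 members were called higher, without Itga8, Itga9, Itgb2 and Lamb1, and with totals without lens genes 16. With 0.01 added, no minimum, the median ratio set to 0, the interval also past 1 or rows of few decimals left out, 13 to 15 members were called higher and 1 lower. Adding Itga2b left 13 and 1. Shares of reads without division by length were not run for the members, since recovered reads are known only up to a multiple that differs between genes. The scaling to totals without lens genes has this limit, as it takes the share of the lens genes from recovered reads. These are the smallest that fit, so its shift of 0.19 may be too small. Members near 0 in retina, such as Itgb6, Itgb7 and Itga10, are limited by their few reads.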

Other observations

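Genes with integrin symbols outside the rule also had values. Itgbl1, a secreted protein with integrin-like repeats and no membrane anchor, was at 37.8 RPKM in eye and 0.177 in retina, a 214-fold ratio larger than that of any member. Itgb1bp2 (melusin), a muscle protein that binds the Itgb1 tail, was at 7.56 in eye and 0.915 in retina, 8.26-fold higher in eye. Itgb1bp1, another protein that binds this tail, had 24.4 in eye and 17.5 in retina, while Itgb3bp had 5.06 in eye and 2.72 in retina, neither called. Itga2b, of platelets, was at 0.929 in eye and 1.08 in retina, not called.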
